A study of Mus musculus with 11 samples.

Results

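The arrays compared here are those of replicates 1 and 2 against those of replicates 3 and 4 in 11 microarrays of line 720, a mouse leukaemia line of the T lineage (T-ALL). The 11 arrays are the whole series, 5 in the first set and 6 in the second, and all 22180 measured genes entered. According to the labels, the line came from a mouse heterozygous for Tcf12 that carried a Tal1 transgene under the Lck promoter, and all arrays share this origin. All cultures had received for 8 h a compound that the labels call a Runt domain inhibitor. RUNX transcription factors bind DNA through this domain. Replicates 1, 3 and 4 of AI-7-54 at 100 µM, replicates 1 to 4 of AI-8-45 at 100 µM and replicates 1 to 4 of AI-9-54 at 50 µM make up the 11. AI-7-54 therefore has a single array in the first set, and no vehicle-treated sample was analysed here. The labels give the numbers alone. They do not tell whether numbers mark separate cultures, days or labelling rounds, so the spread between arrays may be technical. Line 720 is a single line, and no other line was analysed here.

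The split was chosen from the second principal component of these same arrays. The differences between the sets are therefore given as descriptions, without a p-value. Tests are kept for what the split did not use, namely whether the difference depends on the compound and whether numbers differ inside a set.

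Many of the listed genes that lay apart belong to a pair of well-studied programmes, while most genes far apart were in no list. In the integrated stress response, amino acid shortage or other stress restrains translation initiation, and the transcription factor ATF4, often paired with C/EBP proteins, activates genes that import and make amino acids and charge tRNAs. In the hypoxia programme, HIF factors that prolyl hydroxylases mark for degradation when oxygen is plentiful activate glucose uptake, glycolysis and their own hydroxylases. Leukaemic T cells depend on imported amino acids and glucose while they divide, and transcripts of mitosis and DNA replication follow the share of dividing cells.

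Promoter sequences were searched for the elements through which these programmes are known to act. RefSeq promoters of build GRCm38.p6, 250 bases before to 50 bases after the annotated start, were found for 16918 of the 22180 genes. The C/EBP-ATF response element, which joins a C/EBP and an ATF site, was searched as TGATGNAA on both strands. Among the genes at least 0.5 lower on the log2 scale in replicates 3 and 4 by the rule given below, 9 of 64 with a promoter held it (14.1%), against 1 of 27 of the genes higher there (3.70%) and 3.92% of the measured genes. Windows of 11 bases on each side of the match follow for the lower genes that have a gene name, read on the strand of the match, with the element in capitals. They are shown because TGATGCAA recurs in genes that import amino acids, charge tRNAs or respond to stress. Asns holds the variant TGATGAAA. All the genes shown except Jdp2 belong to the gene lists described below, which were chosen with earlier results of these data known. The share among the lower genes rests largely on these listed genes and was not tested.

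Asns, chr6:7693214-7693243, gene on the minus strand: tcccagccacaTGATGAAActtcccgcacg
Chac1, chr2:119351038-119351067, plus strand: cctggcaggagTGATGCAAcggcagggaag
Herpud1, chr8:94386306-94386335, plus strand: ggggtgcgggcTGATGCAAcccgccgtggt
Iars, chr13:49682126-49682155, plus strand: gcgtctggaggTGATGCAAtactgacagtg
Jdp2, chr12:85599372-85599401, plus strand: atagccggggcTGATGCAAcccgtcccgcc
Slc1a4, chr11:20332699-20332728, minus strand: caggctggagaTGATGCAAcgcaggaggca
Slc7a11, first match, chr3:50443661-50443690, minus strand: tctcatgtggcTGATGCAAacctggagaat
Slc7a11, second match, chr3:50443642-50443671, minus strand: gggctgcatgaTGATGCAAattctccaggt
Yars, chr4:129189895-129189924, plus strand: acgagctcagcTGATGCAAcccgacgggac

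The matches began between 193 bases before the annotated start (Chac1) and 7 bases after it (Iars). Those of Slc7a11, which encodes the cystine-glutamate antiporter, lay 66 and 47 bases before it on opposite strands. The 250 bases before its start, chr3:50443614-50443863 on the minus strand, show the pair facing each other: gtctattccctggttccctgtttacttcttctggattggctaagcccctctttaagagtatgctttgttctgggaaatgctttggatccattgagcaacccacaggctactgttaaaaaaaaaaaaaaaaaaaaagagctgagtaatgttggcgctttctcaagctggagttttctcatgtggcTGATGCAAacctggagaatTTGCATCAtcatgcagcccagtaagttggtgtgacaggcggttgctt

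Having the element did not by itself place a gene apart. Among all 664 measured genes with it, the median difference between the sets was -0.00 on the log2 scale and 1.36% were at least 0.5 lower by the same rule, against 0.378% of all genes with a promoter. The hypoxia element, searched as its core ACGTG on both strands, was in 22 of 28 glycolysis and hypoxia-inducible genes with a promoter (78.6%), against 23.8% of measured genes. Genes at least 0.5 higher in replicates 3 and 4 held it in 8 of 27 cases (29.6%). The same core was in 50.0% of aminoacyl-tRNA synthetase genes and 41.2% of amino acid transport and synthesis genes, lists that lay lower there. Mitosis genes held it in 35.0%, so the core is not particular to the glycolysis and hypoxia list. Its 5 bases occur in many promoters, and it overlaps the E-box CACGTG. The next windows are those of the glucose transporter gene Slc2a1, the HIF prolyl hydroxylase gene Egln1 and the hexokinase gene Hk2, shown as listed genes past that limit with the element and 11 bases on each side of it. Higd1a, also listed and past the limit, has a match at the end of its promoter, where the window would be cut. No match was found for Pfkl, Tpi1 or Ndrg1, the listed genes with the largest differences.

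Slc2a1, chr4:119108698-119108724, plus strand: tcccgccccggACGTGctccccaggcc
Egln1, chr8:124949307-124949333, minus strand: ggccgtggtgtACGTGcagcgcgcgcg
Hk2, first match, chr6:82774665-82774691, minus strand: ccagagttgggACGTGtgttccgtggc
Hk2, second match, chr6:82774491-82774517, minus strand: cccggacagtgACGTGgatgtgctcat

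A match of letters is a description of the sequence and was not tested as a binding site. Other motifs searched among the lower genes were known sites of stress and lineage factors. The antioxidant response element TGACNNNGC was in 20.3% of them against 14.9% of measured genes, the AP-1 site TGANTCA in 12.5% against 8.39%, the RUNX site TGNGGT in 57.8% against 47.3%, the E-box in 7.81% against 9.22% and the cyclic AMP response element TGACGTCA in 1.56% against 2.64%.

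Values are log2 intensities, and array medians lay between 6.61 and 6.68 after the authors' normalization. On the first principal component (36.2% of the variance) the arrays lay by compound. On the second (19.6%) replicates 1 and 2 lay between -10.19 and -6.72 and replicates 3 and 4 between 2.24 and 11.37. The third component (11.2%) set 1 array apart, AI-8-45 replicate 3, at -16.28. Over all genes, the compound took 45.2% of the sum of squares on 2 degrees of freedom and the replicate set 18.7% on 1. Per degree of freedom, the number within a set took 3.83%, compound by set 5.71% and the remainder 5.67%.

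**Figure D1:**
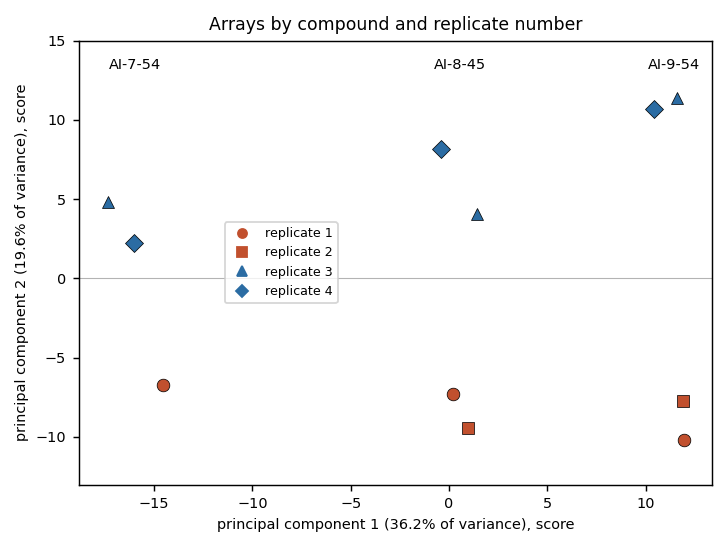
Scores of the 11 arrays on the first component (horizontal axis) and the second component (vertical axis), with the share of variance on each axis; colour marks the replicate set and shape the replicate number. In each compound the arrays of replicates 1 and 2 lie below -6.7 and those of replicates 3 and 4 above 2.2 on the vertical axis.

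A gene was counted as separated when, in each of the 3 compounds, all arrays of one set lay above all arrays of the other, and as far apart when the difference, adjusted for compound, was also at least 0.5 on the log2 scale. By this rule 116 of 22180 genes were far apart, 0.523% of those measured. Of these, 35 genes (0.158%) were higher in replicates 3 and 4 and 81 (0.365%) were lower, with median differences of 0.61 and -0.63. At any size 2361 genes (10.6%) were separated, 1252 higher (5.64%) and 1109 lower (5.00%). The list counts below are to be read against these shares, though most lists are brighter than the median gene. For 12 genes the difference was at least 1, which is a 2-fold difference, 4 higher and 8 lower. The middle 90% of all genes lay between -0.14 and 0.16. Just inside the limit were Ceacam2, Rasgrp1 and Erich3 (each -0.50) and just outside it Cd69 and Fbp1 (-0.50) and Stc1 (0.50, before rounding below the limit). Of the 116 genes, 13 had a mean below the median gene level of 6.91 and are dim. Of 14 further probe sets for 12 of these genes, 12 had the same sign. Only a probe set of Fabp5 (0.59) also reached 0.5, and several differed little, such as those of Uchl1 (0.01), Ndrg1 (0.05) and Slc7a11 (-0.06).

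The difference between the sets can be read separately in each compound, since the compounds share no arrays. Across all 22180 genes, which are not independent replicates, it correlated at r = 0.511 between AI-8-45 and AI-9-54, 0.431 between AI-7-54 and AI-8-45 and 0.295 between AI-7-54 and AI-9-54. Of 141 genes chosen in AI-8-45 alone by the same separation and size, 139 (98.6%) had the same sign in AI-9-54 and 138 (97.9%) in AI-7-54, against 60.1% and 57.7% of all genes. The split itself was chosen on all arrays, so this is a description. The median size over the 116 genes was 0.57 in AI-7-54, 0.65 in AI-8-45 and 0.70 in AI-9-54.

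**Figure D2:**
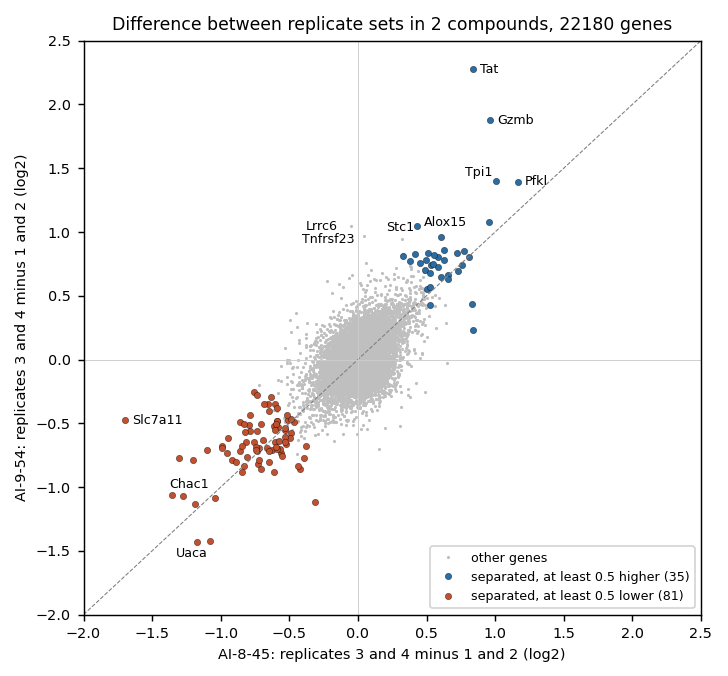
Each point is a gene, placed by its difference between replicates 3 and 4 and replicates 1 and 2 in AI-8-45 (horizontal axis, log2) and in AI-9-54 (vertical axis, log2); the dashed line marks equal differences. The 35 higher genes (blue) and the 81 lower genes (red) lie in the upper right and lower left, while Tat, Gzmb, Lrrc6, Tnfrsf23 and Slc7a11 lie away from the dashed line.

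Genes of amino acid transport and synthesis were lower in replicates 3 and 4 under every compound. Of 20 measured members, 18 were separated and lower, 12 of them by at least 0.5, and none was separated and higher. Their median difference was -0.60, against 0.00 over all genes. The mean of the list lay at 10.14 to 10.39 on the 5 arrays of replicates 1 and 2 and at 9.49 to 9.89 on the 6 arrays of replicates 3 and 4. These ranges do not overlap even across compounds.

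Among the importers, Slc7a3 encodes a transporter of cationic amino acids. It read 9.66 on AI-7-54 replicate 1 against 8.43 and 8.29 on replicates 3 and 4, 9.81 and 9.70 against 8.36 and 8.45 with AI-8-45, and 10.25 and 10.20 against 9.22 and 9.10 with AI-9-54. The difference was -1.23 ± 0.06 (SE, 11 arrays), and all 5 arrays of the first set lay above all 6 of the second. The neutral amino acid transporter gene Slc1a4 read 8.81 against 7.76 and 7.71 with AI-7-54, 8.98 and 8.96 against 7.71 and 7.86 with AI-8-45, and 9.36 and 9.50 against 8.34 and 8.24 with AI-9-54. Its difference of -1.14 ± 0.04 was nearly the same under the 3 compounds (-1.07, -1.19 and -1.14), again with no overlap between the sets.

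Slc7a11, whose paired elements are printed above, read 8.88 against 7.53 and 7.64 with AI-7-54, 9.28 and 9.29 against 7.57 and 7.59 with AI-8-45, and 10.62 and 10.62 against 10.19 and 10.09 with AI-9-54. In this gene the sets were close together with AI-9-54 and far apart with the other compounds, as tested below. The difference of -1.14 was -0.60 as the mean of its probe sets, the other one being dim (4.40). Slc7a1, another cationic transporter gene, differed by -0.79 ± 0.05, and Slc7a5, the light chain of the large neutral amino acid transporter, by -0.76 ± 0.05. Its heavy chain partner gene Slc3a2 differed by -0.33, with 12.21 to 12.59 on the first set and 11.81 to 12.34 on the second, where AI-9-54 lay highest in both sets.

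Among the enzymes, Asns makes asparagine. It read 11.12 against 10.50 and 10.48 with AI-7-54, 11.07 and 11.08 against 10.18 and 10.34 with AI-8-45, and 11.30 and 11.25 against 10.69 and 10.57 with AI-9-54 (difference -0.71 ± 0.05). All 5 arrays of the first set lay above all 6 of the second. The proline synthesis gene Aldh18a1 differed by -0.80 ± 0.07, the mitochondrial folate enzyme genes Mthfd2 and Shmt2 by -0.68 and -0.64, and the alanine transaminase gene Gpt2 by -0.64. Of the serine pathway, Phgdh, the first enzyme, differed by -0.57, Psat1 by -0.50 and Psph by -0.38. The members that were not separated were Slc38a2 (-0.05), a neutral amino acid transporter gene, and Cbs (0.03), which encodes a dim transsulfuration enzyme transcript at 6.62 to 6.79.

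**Figure D3:**
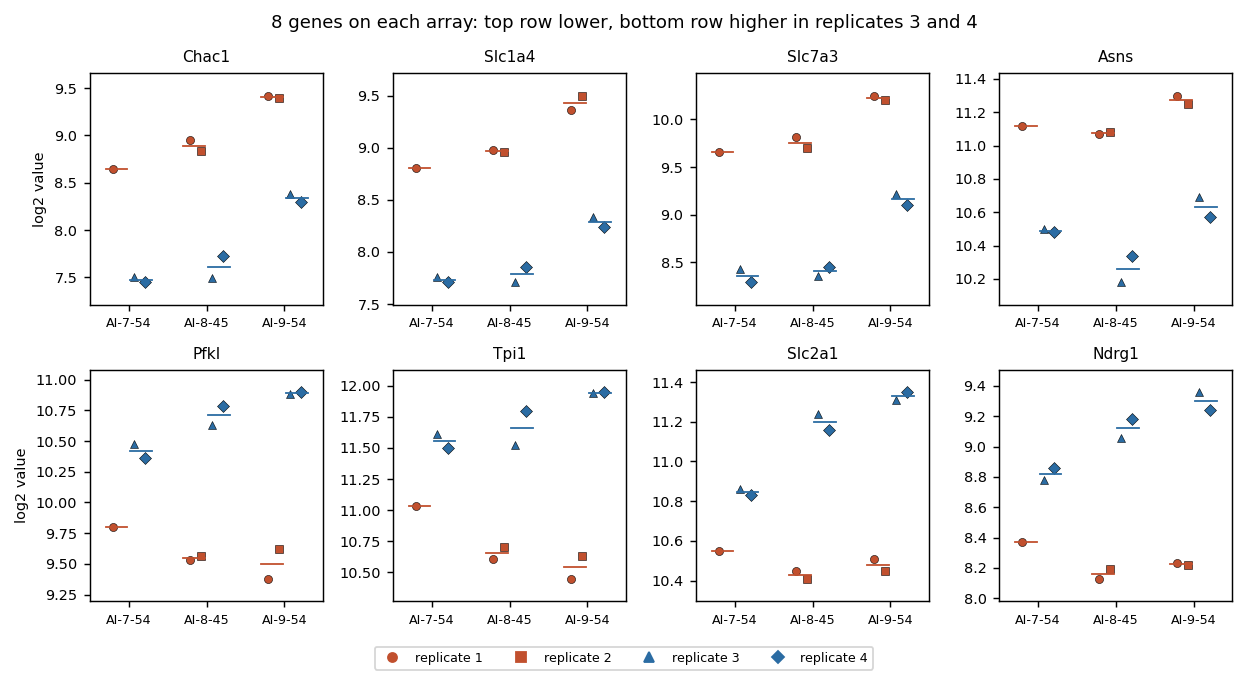
Log2 values (vertical axis) of 8 genes on each of the 11 arrays, by compound (horizontal axis); colour marks the replicate set, shape the number, and short lines the mean of a set within a compound. Chac1, Slc1a4, Slc7a3 and Asns lie lower, and Pfkl, Tpi1, Slc2a1 and Ndrg1 higher, on the arrays of replicates 3 and 4 of each compound.

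Aminoacyl-tRNA synthetase genes, which encode the enzymes that load amino acids onto tRNAs, were separated and lower in 11 of 17 cases and higher in none (median -0.37). The cysteinyl enzyme gene Cars read 9.92 against 9.18 and 9.16 with AI-7-54, 10.12 and 10.09 against 9.0 and 9.23 with AI-8-45, and 10.36 and 10.45 against 9.79 and 9.66 with AI-9-54 (difference -0.81 ± 0.06). Its sets did not overlap across compounds either. The methionyl (Mars1, -0.67), isoleucyl (Iars, -0.62) and tyrosyl (Yars, -0.60) genes also passed the 0.5 limit. The other 6 of the 17, Farsb, Qars, Wars, Kars, Hars and Rars, lay between -0.03 and 0.05, so the list held a group that differed and a group that did not separate.

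Regulators and further effectors of the integrated stress response formed the next list. Of its 16 members, 10 were separated and lower and none higher (median -0.27), 3 by at least 0.5. Chac1, which encodes an enzyme that breaks down glutathione, read 8.65 against 7.50 and 7.45 with AI-7-54, 8.95 and 8.83 against 7.49 and 7.73 with AI-8-45, and 9.42 and 9.39 against 8.38 and 8.30 with AI-9-54 (difference -1.17 ± 0.05). The sets did not overlap. Cth, a transsulfuration enzyme gene that makes cysteine, differed by -0.81 and the nutrient sensor gene Sesn2 by -0.55.

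Atf4 itself read 9.35 to 9.68 on replicates 1 and 2 and 8.92 to 9.25 on replicates 3 and 4 (difference -0.40 ± 0.04), with no overlap. Trib3, a pseudokinase gene that ATF4 activates, differed by -0.46, Ddit3, which encodes CHOP, by -0.35, and Atf3 (-0.14) and Atf5 (-0.12) were not separated. Ddit3 lay at 9.07 against 8.90 and 8.90 with AI-7-54 and at 10.69 and 10.74 against 10.12 and 10.03 with AI-9-54. Its sets therefore overlapped across compounds while staying apart within each. The highest member was Ddit4, a stress gene that restrains mTOR signalling, at 0.31, not separated. Outside this list, the translation repressor gene Eif4ebp1, known as an ATF4 target, read 10.89 to 11.30 on the first set and 10.09 to 10.56 on the second (-0.80 ± 0.05). The endoplasmic reticulum stress gene Herpud1 differed by -0.68, while of the 20 endoplasmic reticulum chaperone and stress genes, Herpud1 included, 4 were separated and higher and 3 lower (median 0.03). Hspa5, the main chaperone of that compartment, differed by -0.10 and was not separated.

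**Figure D4:**
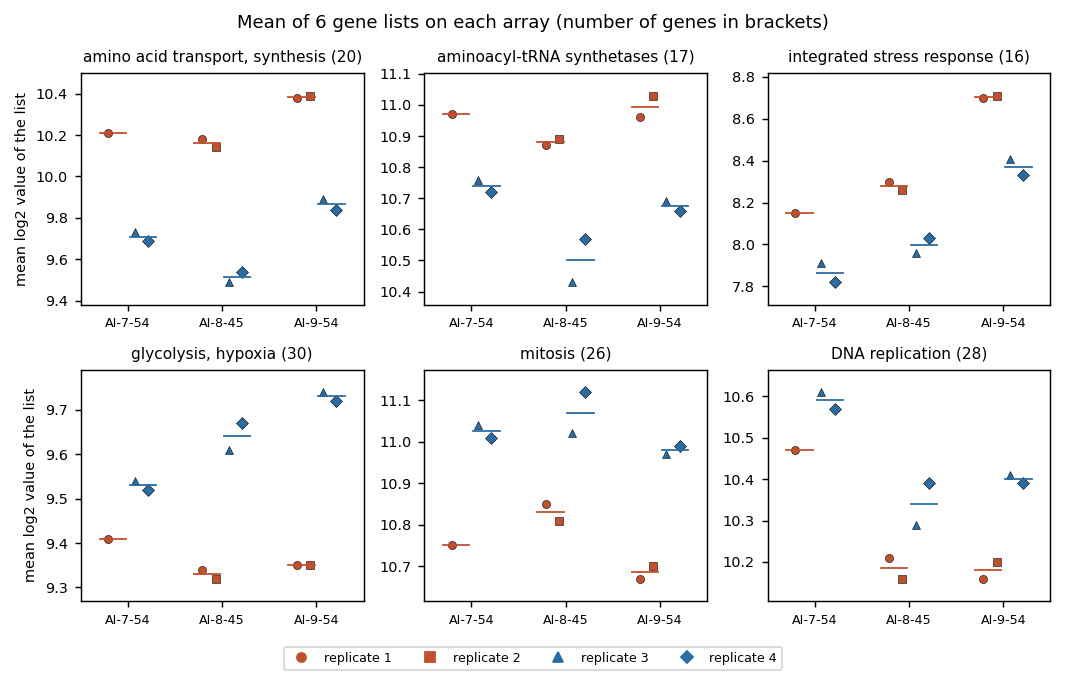
Mean log2 value of the genes of 6 lists (vertical axis, number of genes in brackets) on each of the 11 arrays, by compound (horizontal axis); colour marks the replicate set, shape the number, and short lines the mean of a set within a compound. The upper lists lie lower and the lower lists higher on replicates 3 and 4 within each compound.

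Glycolysis and hypoxia-inducible genes were higher in replicates 3 and 4. Of 30 members, 16 were separated and higher, 7 by at least 0.5, and 1, the hexokinase gene Hk1, was separated and lower (-0.10). The median was 0.17. The list mean lay at 9.32 to 9.41 on replicates 1 and 2 and at 9.52 to 9.74 on replicates 3 and 4.

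Pfkl, the liver-type phosphofructokinase gene, read 9.80 against 10.48 and 10.36 with AI-7-54, 9.53 and 9.56 against 10.63 and 10.79 with AI-8-45, and 9.38 and 9.62 against 10.88 and 10.90 with AI-9-54 (difference 1.11 ± 0.10). The triosephosphate isomerase gene Tpi1 read 11.03 against 11.61 and 11.50, 10.61 and 10.70 against 11.52 and 11.80, and 10.45 and 10.63 against 11.94 and 11.95 in the same order (1.03 ± 0.11). In both genes the sets did not overlap, and the difference was smallest with AI-7-54 (0.62 and 0.53) and largest with AI-9-54 (1.39 and 1.40), an order that was not called by the interaction test (adjusted p 0.412 and 0.393).

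Slc2a1, the gene of the glucose transporter GLUT1, read 10.41 to 10.55 on replicates 1 and 2 and 10.83 to 11.35 on replicates 3 and 4 (0.68 ± 0.07). Ndrg1, a well-known hypoxia-inducible gene, read 8.13 to 8.37 and 8.78 to 9.36 (0.88 ± 0.08). As means of their probe sets these differences were 0.41 and 0.46, since each has a dimmer second probe set (0.14 and 0.05). The HIF hydroxylase gene Egln1 differed by 0.57, the mitochondrial hypoxia gene Higd1a by 0.51 and Hk2 by 0.51. Below the 0.5 limit but separated were the phosphoglycerate mutase gene Pgam1 (0.49), the collagen prolyl hydroxylase gene P4ha1 (0.48) and the lactate dehydrogenase gene Ldha (0.47). Other known hypoxia-inducible genes did not separate, among them Vegfa (0.09), Car9 (0.02), Egln3 (-0.01) and Slc2a3 (-0.05), and so did Gapdh (0.09) and Pgk1 (0.09).

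Genes of the dividing cell differed by less, with nearly all members in the same direction. Of 26 mitosis genes, 25 were separated and higher in replicates 3 and 4 (median 0.28, range 0.10 to 0.42), and the remaining one was Foxm1 (0.14). None reached 0.5. The phosphatase gene Cdc25c, which activates the mitotic kinase, read 9.44 against 9.84 and 9.80 with AI-7-54, 9.54 and 9.48 against 9.87 and 9.97 with AI-8-45, and 9.17 and 9.31 against 9.69 and 9.68 with AI-9-54 (0.42 ± 0.04). Its highest array of the first set (9.54) lay below its lowest of the second (9.68). The mitotic kinase genes Aurka, Plk1 and Cdk1 differed by 0.37, 0.32 and 0.31. DNA replication genes were separated and higher in 18 of 28 cases (median 0.14) and none was separated and lower, led by the replication factor gene Gins1 (0.39), the flap endonuclease gene Fen1 (0.35) and the helicase subunit gene Mcm3 (0.30). The replication list also moved with the compound: its mean was 10.47 on AI-7-54 replicate 1, above the 10.29 to 10.41 of replicates 3 and 4 with AI-8-45 and AI-9-54, so its sets overlapped across compounds.

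Of the other lists, those of p53, Notch, NF-kB and immediate early genes leaned lower in replicates 3 and 4. The p53 target list had 9 of 17 members separated and lower and none higher (median -0.14). Its leading members were Plk2 (-0.83 ± 0.07) and the cell-cycle inhibitor gene Cdkn1a (-0.75 ± 0.08). Cdkn1a read 10.40 against 9.73 and 9.71 with AI-7-54, 10.29 and 10.32 against 9.13 and 9.59 with AI-8-45, and 10.42 and 10.41 against 9.91 and 9.70 with AI-9-54. The sets did not overlap, while Mdm2, the feedback regulator of p53, differed by -0.05, a small difference that was also separated.

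The Notch list had 8 of 13 members separated and lower and 1 higher (median -0.21). The receptor genes Notch3 (-0.62 ± 0.04) and Notch1 (-0.36), the direct target Hes1 (-0.37) and the feedback inhibitor gene Nrarp (-0.34) were lower, and Igf1r was higher (0.39). Among 15 NF-kB genes 5 were lower and 1, Ltb, was higher, and among 27 immediate early genes 7 were lower, led by Nr4a1 (-0.49). Jun, an AP-1 subunit gene, was the one immediate early gene separated and higher (0.58 ± 0.08), at 9.68 against 10.46 and 10.29 with AI-7-54. Cytosolic ribosomal protein genes were separated and lower in 9 of 21 cases by small amounts (median -0.07). Heat shock genes were separated and higher in 7 of 16 (median 0.09, Hsph1 0.49), and oxidative phosphorylation genes in 4 of 26 (median 0.07). Over all genes 5.64% were separated and higher and 5.00% lower. Both of these lists are bright, with median levels of 10.22 and 10.52 against 6.91 for all genes.

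Several other growth and defence lists had medians close to that of all genes. Cholesterol synthesis genes had a median of -0.01 with 2 of 19 separated and higher and 1 lower, ribosome biogenesis genes -0.01 with 2 of 30 higher and 4 lower, and interferon response genes -0.02 with 2 of 25 higher and 1 lower. The interferon list had medians of -0.08 with AI-7-54, -0.06 with AI-8-45 and 0.13 with AI-9-54, and its mean was lower in replicates 3 and 4 with the first pair and higher with AI-9-54. Whether these differ between compounds was not tested for the list. The NRF2 oxidative response list, the defence against oxidants, had 4 of 18 members separated and higher and 2 lower (median 0.04). Its mean was likewise lower with AI-7-54, overlapped with AI-8-45 and was higher with AI-9-54 (medians -0.05, 0.00 and 0.13). The quinone reductase gene Nqo1 was higher (0.66 ± 0.09) and the haem oxygenase gene Hmox1 lower (-0.58 ± 0.08), each separated in every compound.

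Of the 116 genes, 77 were outside all lists and 39 inside one. The highest difference of all was that of the tyrosine aminotransferase gene Tat, a classical glucocorticoid target. It read 6.18 against 6.89 and 6.67 with AI-7-54, 6.90 and 6.79 against 7.51 and 7.86 with AI-8-45, and 7.50 and 7.76 against 10.01 and 9.81 with AI-9-54 (1.32 ± 0.23). Outside AI-9-54 replicates 3 and 4 it read at most 7.86. The interaction tests below did not call Tat. Of 14 listed glucocorticoid receptor targets, 2 were separated and higher (Tat and Zbtb16) and 1 lower, and Fkbp5 (0.01) and Tsc22d3 (0.00) did not separate. Gzmb, the granzyme B gene, differed by 1.16 ± 0.18, most with AI-9-54, while of 16 cytotoxic granule genes 3 were higher and 2 lower. The Gzmb sets were also apart with AI-8-45, and limma's test of AI-9-54 against AI-8-45 did not call Gzmb (0.91, adjusted p 0.108). Gcnt4, an O-glycan branching enzyme gene, read 8.94 to 9.46 on replicates 1 and 2 and 9.51 to 10.17 on replicates 3 and 4 (0.73 ± 0.04). Id3, which encodes an inhibitor of E proteins, read 8.16 against 8.83 and 8.67 with AI-7-54, 7.87 and 7.72 against 8.43 and 8.60 with AI-8-45, and 7.38 and 7.47 against 8.11 and 8.13 with AI-9-54 (0.68 ± 0.05). Its sets overlapped across compounds.

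The remaining higher genes of the 15 with the largest differences were Prxl2c (0.75), the lipoxygenase gene Alox15 (0.68), the deubiquitinase gene Uchl1 (0.65, or 0.33 averaged over its probe sets), Arhgap20 (0.64), Fam241a (0.64) and the cytochrome oxidase subunit gene Cox6a2 (0.63). On the lower side, Uaca read 11.40 against 10.60 and 10.63 with AI-7-54, 11.11 and 11.13 against 9.91 and 9.99 with AI-8-45, and 10.60 and 10.68 against 9.20 and 9.21 with AI-9-54 (-1.17 ± 0.08), apart within each compound and overlapping across them. The mast cell carboxypeptidase gene Cpa3 differed by -1.10 ± 0.09 and the zinc finger gene Zfp78 by -0.87. Naip5 and Naip6, near-identical inflammasome sensor genes whose probes may share signal, differed by -1.09 and -0.85 and are uncertain as separate genes.

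Runx1, which encodes a Runt domain factor, read 11.77 to 12.04 on replicates 1 and 2 and 11.51 to 11.79 on replicates 3 and 4 (-0.23 ± 0.03), separated in every compound though the ranges touch across compounds. Runx3 differed by -0.16 and was separated. The cofactor gene Cbfb (-0.01), the transgene's gene Tal1 (0.09), Tcf12 (-0.02) and Myb (-0.01) were not separated. Myc differed by -0.25 ± 0.05 and was separated, reading 11.67 to 12.15 on the first set and 11.26 to 11.96 on the second. Runx2 was not analysed here.

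The arrays carried T-lineage transcripts throughout, as the label says. The mean of 20 T-cell identity genes was 11.09 to 11.29 on replicates 1 and 2 and 11.07 to 11.19 on replicates 3 and 4. The list was not free of differences: 7 of the 20 genes were separated and lower and 2 higher, and its mean was lower in replicates 3 and 4 with AI-7-54 and AI-8-45 and overlapped with AI-9-54. Of the lists named for other cells, these had overlapping ranges in the sets: 9 B-lineage genes at 5.91 to 6.02 and 5.83 to 5.94, 12 myeloid genes at 6.22 to 6.27 and 6.21 to 6.26, and 12 stromal and endothelial genes at 8.03 to 8.11 and 8.03 to 8.09. The stromal list shares Thy1 with the T-cell list, so it does not mark other cells alone. Within compounds, the B-lineage mean was lower in replicates 3 and 4 with AI-7-54 and AI-9-54. The myeloid mean was higher there with AI-7-54, and the stromal mean was higher with AI-7-54 and lower with AI-8-45. The other means overlapped. Single members were separated: Blnk, of the B-lineage list, was lower by -0.61 ± 0.04, and of the 12 stromal genes 1, Vim, was higher (0.27) and 3 were lower. The mean of 4 erythroid genes was higher in replicates 3 and 4 in every compound, at 8.12 against 8.24 and 8.23 with AI-7-54, 8.02 and 8.03 against 8.15 and 8.29 with AI-8-45, and 7.95 and 7.97 against 8.08 and 8.05 with AI-9-54. Of these genes only Tfrc, also expressed by dividing cells, was separated (0.48). In bulk samples fewer cells of a type and less RNA per cell cannot be told apart, and this applies to all values above. The part of other cells in the differences was not tested.

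No gene was called for a difference between numbers inside a set. The tests and values here join the compounds, while the numbers did not pair arrays between them. Differences of opposite direction then cancel, so a lack of calls does not show that arrays of a set are alike. On the third component, for example, AI-8-45 replicate 3 lay at -16.28 and replicate 4 at -1.45. For replicate 2 minus replicate 1, with AI-8-45 and AI-9-54 holding both numbers, limma called 0 of 22180 genes (0%, lowest adjusted p 0.999), with 488 genes (2.20%) at an unadjusted p under 0.05. For replicate 4 minus replicate 3, in 3 compounds, it called 0 genes (0%, lowest adjusted p 0.230), with 447 genes (2.02%) at an unadjusted p under 0.05. Over the 20 genes of amino acid transport and synthesis the median difference was 0.01 between replicates 2 and 1 and 0.00 between 4 and 3, against -0.60 between the sets. For the 26 mitosis genes the medians were -0.00 and 0.03 against 0.28, and for the 30 glycolysis and hypoxia genes -0.04 and 0.01 against 0.17. All 17 aminoacyl-tRNA synthetase genes read slightly higher on replicate 2 than on replicate 1 (0.01 to 0.13), none of them called. In the genes far apart, no replicate 2 minus 1 difference exceeded 0.29 in size and no replicate 4 minus 3 difference exceeded 0.24. The rule that chose these genes favours arrays close together inside a set, so this is no independent contrast. Over all genes these differences reached from -0.76 to 0.65 and from -0.42 to 0.44.

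Whether the difference between the sets depended on the compound was asked with limma's F test on the compound by set interaction over all genes. It called 5 genes (0.0225% of 22180), Slc7a11 (adjusted p 0.00501), Lrrc6 and Tnfrsf23 (0.0165 each), and Stc1 and Gzmb (0.0199 each). Of these, Slc7a11 and Gzmb are among the 116 genes far apart. In this test dose and compound cannot be told apart, since only AI-9-54 was given at 50 µM. The interaction tests set the difference against the spread of arrays inside a set, which may be technical, and not against repeated sets.

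Set directly against AI-8-45, which also has 2 arrays in each set, AI-9-54 differed in 3 genes (0.0135%). The set difference of Slc7a11 was -0.48 with AI-9-54 and -1.70 with AI-8-45, a difference of 1.22 ± 0.08 (SE, limma adjusted p 0.00145). Lrrc6 was 1.05 higher in replicates 3 and 4 with AI-9-54 and -0.05 with AI-8-45 (1.10 ± 0.10, adjusted p 0.0111). Tnfrsf23, a decoy receptor gene for TRAIL, was 0.97 and 0.04 (0.93 ± 0.11, adjusted p 0.0485). For Lrrc6 and Tnfrsf23 the sets thus stood apart with AI-9-54 and overlapped with AI-8-45.

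Lrrc6 read 6.69 and 6.87 against 7.85 and 7.79 with AI-9-54, and 6.44 and 6.44 against 6.34 and 6.44 with AI-8-45. Tnfrsf23 read 6.79 and 6.82 against 7.74 and 7.80 with AI-9-54, and between 6.78 and 6.96 on all 4 arrays of AI-8-45. In both, only the arrays of AI-9-54 replicates 3 and 4 stood out. Gzmb read 5.63 against 6.03 and 5.99 with AI-7-54, 5.67 and 5.42 against 6.41 and 6.61 with AI-8-45, and 6.81 and 6.93 against 8.75 and 8.75 with AI-9-54. Stc1, which encodes the secreted hormone stanniocalcin, read 9.68 and 9.64 against 10.60 and 10.62 with AI-9-54, while the other arrays lay between 10.56 and 10.95, so here the arrays of AI-9-54 replicates 1 and 2 stood apart.

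These interaction calls rest on few arrays. The F test called 5 genes without AI-8-45 replicate 4, 3 without AI-7-54 replicate 1 or AI-8-45 replicate 3, 2 without AI-8-45 replicate 1 or 2 or AI-9-54 replicate 2 or 4, 1 without AI-7-54 replicate 3 or 4 and 0 without AI-9-54 replicate 1 or 3. The AI-9-54 against AI-8-45 call of Slc7a11 was kept with each array left out in turn (adjusted p 0.00145 to 0.0240) and was lost as the mean of its probe sets (0.65, adjusted p 0.0642). That of Tnfrsf23 was lost in 10 of the 11 cases. That of Lrrc6 was lost without AI-8-45 replicate 1, 2 or 3 or AI-9-54 replicate 1, 3 or 4 (adjusted p 0.0502 to 0.127).

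**Figure D5:**
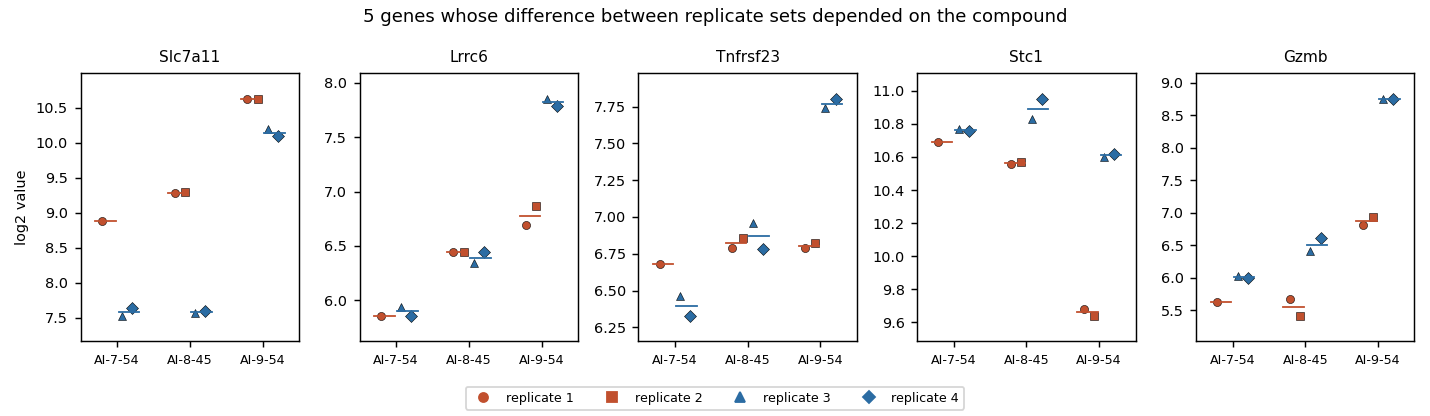
Log2 values (vertical axis, a separate scale per gene) of the 5 genes called by the interaction test on each of the 11 arrays, by compound (horizontal axis); colour marks the replicate set, shape the number, and short lines the mean of a set within a compound. Slc7a11 shows the smallest gap between the sets with AI-9-54 (-0.48), and the other genes show the largest gap there.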

How the data were processed

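Total RNA from 11 samples was measured on single-colour arrays. The authors deposited log2 values per probe set, made with RMA and Partek 6.6 among the tools listed in the submitters' processing notes. The log2 scale was taken from the values, 3.23 to 13.8 with nearly equal array medians. In the sources used here no genome build is given. No background level was used, so a low value is dim, not absent. Precision is limited by the 11 arrays. Of 41345 probe sets, 23521 had 1 symbol in the platform annotation, 1814 several and 16010 none. Symbols were updated through 23328 matches to a GRCm38.p6 gene table. Each of 22180 genes was its probe set of highest mean. No 2 arrays were identical.

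The difference between the sets was a least-squares estimate with compound as a factor, with its SE from limma 3.58.1 (lmFit, eBayes) in R 4.3.3. The interaction and number contrasts were limma tests with 5 residual degrees of freedom, two-sided for contrasts, adjusted with Benjamini-Hochberg over all genes (called under 0.05) and tested on simulated data. The replicate numbers did not pair arrays inside the sets: deviations correlated at -0.29 between AI-8-45 and AI-9-54 for replicate 2 minus 1, and at -0.231, 0.000829 and -0.108 between compounds for 4 minus 3.

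The split, the members and the 37 gene lists (709 entries, 624 measured, 36 lists with a measured gene) were chosen with earlier results of these data known. Named were the 15 genes far apart with the largest difference per direction, leaving out predicted, clone and small RNA symbols, leading list genes, interaction calls, genes near the limit and the fixed genes Tal1, Tcf12, Cbfb, Myc, Myb, Runx1, Runx2 and Runx3. Other list members and those in the closing observations were picked after their values were seen. Alternatives were other scalings, a filter on dim genes, the mean over probe sets, array weights, an intensity trend, the replicate block, other limits, AI-8-45 with AI-9-54 alone, and each array left out. Promoters and microRNAs came from RefSeq tables of build GRCm38.p6. Figures used matplotlib 3.10.9 in Python 3.11.15.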

Additional observations from a re-analysis of the deposited data

Results flagged for a closer look

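Within the compounds with 4 arrays, the gap of the highest or lowest array to the nearest other, divided by the range, was examined in 196 sets of values of named genes, list means and component scores, and it passed Dixon's critical value for 4 arrays in 3. For 4 values drawn from a single normal distribution, chance passes it in about 1 of 20 cases. That rate does not hold here, since each group of 4 holds arrays of both replicate sets. Many of the named genes were also chosen for the gap between those sets. All 3 concerned AI-8-45 replicate 3, the array that stood apart on the third component. Lrrc6 read 6.34 there against 6.44 on each of the other AI-8-45 arrays. The mean of the interferon response list was 7.78 against 7.86 to 7.88, and the mean of the list of the TAL1 complex and E proteins was 8.99 against 8.92 to 8.93. Without this array the count of genes far apart was 114, 40 higher and 74 lower. The cause of its position was not tested.

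By limma's interaction test, the difference between the replicate sets was called as dependent on the compound for Slc7a11 (adjusted p 0.00501), Lrrc6 and Tnfrsf23 (0.0165 each) and Stc1 and Gzmb (0.0199 each). The test measures this against the spread of arrays inside a set, which may be technical. None of the 5 was called without AI-9-54 replicate 1 or 3. Between AI-9-54 and AI-8-45 the differences of set differences were 1.22 for Slc7a11 (adjusted p 0.00145), 1.10 for Lrrc6 (0.0111) and 0.93 for Tnfrsf23 (0.0485).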

How the results depend on the processing

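The count of 116 genes far apart stayed between 103 and 145 under every alternative with the 0.5 limit, and between 109 and 145 with each array left out. It was highest without AI-7-54 replicate 1, where the separation rule could read only AI-8-45 and AI-9-54. Leaving out an array cannot undo a separation, so this stability is partly built in. The count was 419 (203 higher, 216 lower) with a limit of 0.3, 12 (4 and 8) with a limit of 1 and 2361 (1252 and 1109) with no limit, a choice made after seeing the data. At any size or at 0.3 the split between higher and lower genes was therefore nearly even. With the replicate block it was 118, 38 higher and 80 lower. None of the 45 named differences of at least 0.5, nor the 9 list medians of at least 0.1 in size, changed sign under the alternatives run. The 45 genes were chosen as separated in every compound, so leaving out an array could not turn their sign. In all 737 list medians kept within their spread while 18 moved. Of the named genes' differences 1188 shifted by less than the gene's residual standard deviation, which is not the SE given above. The other 7 moved further, all as the mean of a gene's probe sets.

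The interaction F count was 5. It was 8 with arrays centred on their median, 9 among genes above the median mean, 8 with array weights, 11 with an intensity trend, 0 with the replicate block (lowest adjusted p 0.12), and 0 to 5 with each array left out. The count for AI-9-54 against AI-8-45 was 3. It was 8 with arrays centred, 6 among genes above the median mean, 1 as the mean of probe sets, 5 with an intensity trend, 1 with the replicate block, and 1 to 4 with each array left out. The causes were not tested. No gene was called for replicate 2 minus 1 or 4 minus 3 under any alternative run, including each array left out. These contrasts join the compounds and do not show that arrays of a set are alike. With 1 array of AI-7-54 in the first set, a lone array is assumed to vary like the others.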

Other observations

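Some groups outside the lists above, chosen after their values were seen, were also apart. The adhesion genes Itgal and Itgb2, whose proteins pair as the integrin LFA-1, were lower in replicates 3 and 4 by -0.55 ± 0.04 and -0.54 ± 0.05. Itgal read 11.85 to 11.95 on replicates 1 and 2 and 11.31 to 11.46 on replicates 3 and 4, with no overlap. The E-cadherin gene Cdh1 (-0.71 ± 0.03) and the costimulatory ligand gene Cd80 (-0.67 ± 0.08) were lower as well. Of 15 tubulin genes 5 were separated and higher and none lower, led by Tuba1c (0.58), Tubb3 (0.51) and Tuba1a (0.49), and another probe set of Tuba1c had the opposite sign (-0.14). Over all genes 5.64% were separated and higher and 5.00% lower.

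The microRNA genes Mir15b and Mir16-2, which lie within Smc4, a condensin subunit gene, were higher in replicates 3 and 4, by 0.69 ± 0.08 and 0.48 ± 0.10, and Smc4 by 0.26 ± 0.03. All 3 were separated in every compound. Mir15b read 6.50 against 7.24 and 7.43 with AI-7-54, 7.36 and 7.33 against 8.26 and 7.76 with AI-8-45, and 7.34 and 7.39 against 7.90 and 8.10 with AI-9-54. The array cannot tell precursor from mature RNA here, and which of them the probes report was not tested. Their mature products, from RefSeq, are shown because they share the seed AGCAGCA (bases 2 to 8, in capitals).
mmu-miR-15b-5p: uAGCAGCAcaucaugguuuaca
mmu-miR-16-5p: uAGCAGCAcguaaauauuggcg
Of 483 microRNA symbols measured, 8 were separated and higher and 4 lower, smaller shares than the 5.64% and 5.00% of all genes.

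On AI-8-45 replicate 3, the array apart on the third component, small nucleolar RNA symbols lay above AI-8-45 replicate 4 in 64 of 78 cases (82.1%, median 0.18), against 44.5% of all genes. The same median was -0.13 for AI-7-54 and 0.16 for AI-9-54, and -0.03 between the replicate sets.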
